A study of Danio rerio with 6 samples.

Results

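Cytosolic ribosomal proteins and the initiation and elongation factors of translation were followed on the zebrafish array through 15 targets, out of 37157. Only the 2663 targets with a RefSeq mRNA identifier and a current symbol could be named. Genes of this kind that the array holds under other identifiers were not included. A target is a transcript sequence covered by up to 12 probes, and a target was included when its RefSeq mRNA identifier carries a current zebrafish symbol that starts with rpl, rps, eif or eef and a digit. The kinases of ribosomal protein S6 were left out. The targets stand for 3 proteins of the large ribosomal subunit (rpl6, rpl27a and rpl37), 2 of the small subunit (rps6 and rps20), 8 initiation factor genes and 2 elongation factor genes, with 1 target each. They are therefore a small part of the machinery. The symbol in the annotation of the array was the same for all 15.

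The RNA came from whole larvae of the wild-type AB strain at 120 hours post fertilization (hpf). Embryos of the 5 Gy treatment had received that dose in a Co-60 irradiator at 26 hpf, and embryos of the control treatment (0 Gy) were mock irradiated. Each pool held 50 larvae raised in a petri dish, with 3 pools per treatment that the labels number 1 to 3, and was hybridized to 1 one-color array. A pool of whole larvae holds every tissue, so fewer cells of a type and less RNA per cell cannot be told apart.

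The ribosome reads mRNA on its small subunit and joins amino acids on its large subunit. Initiation factors bring the small subunit, the initiator tRNA and the capped mRNA together, and elongation factors then deliver each charged tRNA and move the ribosome along. Many of these mRNAs are among the most abundant in growing tissue, and their translation is controlled as a group by the mTOR pathway, while phosphorylation of the initiation factor eIF2 is the switch of the integrated stress response. The question for these genes was whether their mRNA levels differed at 120 hpf between larvae irradiated as embryos and mock-irradiated larvae.

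None of the 15 targets was called altered at 5 Gy. A target was called altered when limma gave an unadjusted p under 0.05 and 5 Gy and control differed by at least 1.5-fold in either direction, which are the thresholds of the methods. Ratios are given as the log2 value at 5 Gy minus that in controls. Of all targets on the array 4.04% were called, 1.15% higher and 2.89% lower at 5 Gy, so a count of 0 among 15 targets does not set them apart from the array. No member reached an unadjusted p of 0.05 with limma, and the smallest was 0.0604. In the methods' t-test 2 members had an unadjusted p under 0.05, eef1a1l2 and rpl6, against 2.7% of all targets, but neither reached 1.5-fold. The smallest adjusted p of a member was 0.905 with limma, and the smallest on the whole array was 0.0909. The log2 ratio was above 0 for 10 members and below 0 for 5, between -0.24 and 0.56, with a median of 0.08. Over all targets the median was -0.03.

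**Figure D1:**
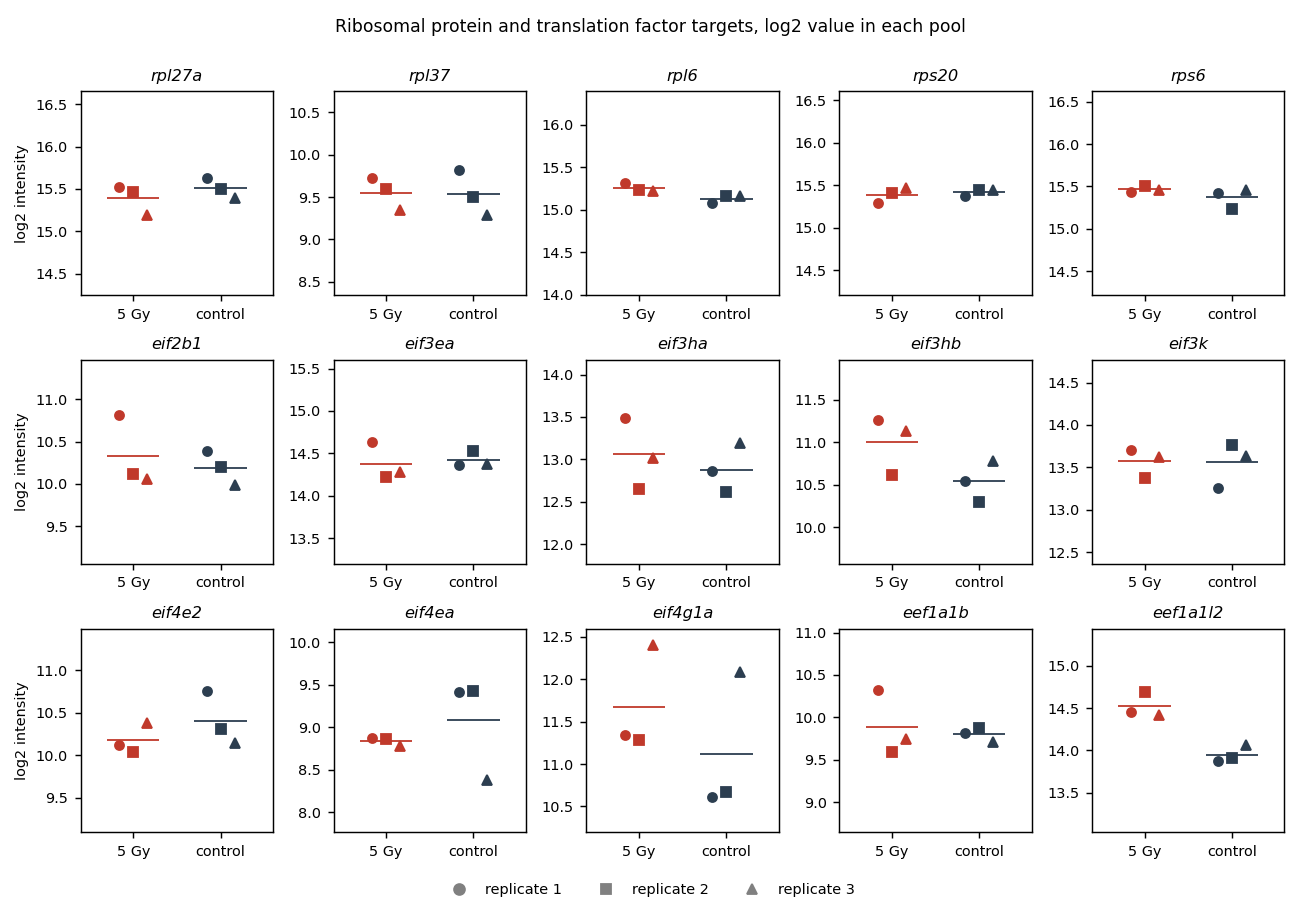
Log2 intensity (y axis) of the 15 targets in each pool, with 5 Gy pools on the left and control pools on the right of each panel, a marker shape for each replicate number and a line at each mean of 3 pools. Every panel spans 2.4 log2 units around its own centre. The 5 Gy values of eef1a1l2 and rpl6 lie above all control values, and eif4g1a separates the pools numbered 3 from the rest.

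The pools of the treatments did not overlap for 2 of the 15 targets, eef1a1l2 and rpl6, both higher at 5 Gy. On the whole array 7.49% of targets did not overlap, 2.78% higher and 4.7% lower. In pools paired by replicate number, 4 members were higher at 5 Gy in all 3 pairs (rpl6, eif3hb, eif4g1a and eef1a1l2) and 1 was lower in all 3 (rpl27a). For all targets these shares were 12.9% and 15.2%. After group means were removed, the deviations of same-numbered pools correlated over all targets at 0.15, 0.239 and 0.497 for the numbers 1, 2 and 3. Deviations cancel within a treatment, so these 3 values depend on each other. In their plain values, 5 Gy replicates 1 and 2 correlated most, among controls, with control replicate 3 (0.957 and 0.915). With the control of their own number they correlated at 0.925 and 0.902. No member was called with the replicate number as a block in the fit, where 8.81% of all targets were called. Across targets, which are not independent replicates, the values of control replicate 3 correlated at 0.987 with 5 Gy replicate 3, and at 0.897 and 0.905 with control replicates 1 and 2. Without it 1 of the 15 members, eif4g1a, was called, against 19.2% of all targets.

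The values of the ribosomal protein genes rps6, rps20 and rpl6 lay close together in all 6 pools, and those of rpl27a and rpl37 were more spread. The rps6 target, whose protein sits on the small subunit and is phosphorylated downstream of mTOR, had log2 values of 15.44, 15.50 and 15.46 in the 5 Gy pools, against 15.42, 15.24 and 15.46 in the control pools. Values of the treatments overlapped, and the ratio of 0.09 (standard error 0.254) had a 95% interval of -0.49 to 0.68, which is a fold of 0.712 to 1.6. The rps20 target, another small subunit protein, had 15.29, 15.41 and 15.47 at 5 Gy, against 15.37, 15.44 and 15.44 in controls. Its ratio was -0.03 (95% interval -0.61 to 0.55), again with overlapping pools. The rpl27a target had 15.52, 15.47 and 15.19 at 5 Gy, against 15.63, 15.50 and 15.39 in controls, with a ratio of -0.11 (95% interval -0.72 to 0.49).

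The large subunit protein gene rpl6 had log2 values of 15.31, 15.23 and 15.22 at 5 Gy, against 15.08, 15.16 and 15.16 in the control treatment. Every 5 Gy pool was above every control pool, but the gap was small, with a ratio of 0.12 or a fold of 1.09. The mean was 15.26 ± 0.048 at 5 Gy and 15.13 ± 0.0492 in controls (SD, n = 3 pools each). An exact two-sided permutation test gave p = 0.1, and no lower value can be reached with 3 pools in each treatment. With limma the unadjusted p was 0.64 (adjusted p = 0.949), because limma moves the standard deviation of each target toward that of all targets. For rpl6 it gave a standard error of 0.251, and every target that reached p under 0.05 on the array also differed by at least 1.5-fold. With a prior that follows the mean level the unadjusted p of rpl6 was 0.344, and in the methods' t-test, which uses its own spread alone, 0.0376.

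The signal of rps6, rps20, rpl6 and rpl27a was close to the top of the scale. The highest log2 value was 15.99 on 5 arrays and 15.94 on that of 5 Gy replicate 2, and it was shared by 11 to 144 probes on each array. Of the 175 probes of the 15 targets, 34 (19.4%) had a mean log2 value of at least 15, against 0.49% of all probes. They were 11 of the 12 probes of rps6, 9 of 12 of rps20, 7 of 12 of rpl6, 6 of 11 of rpl27a and 1 of eif3k. On the array of 5 Gy replicate 2, 4 of the members' probes were at the very top value, and on the other arrays none was. Targets at this level varied little in general. The residual standard deviation was 0.0486 to 0.153 for the 4 ribosomal protein targets with a mean of at least 15, with a median of 0.0793, and the median was 0.103 for the 147 other targets at that level and 0.435 for all targets. A probe near the top can register only a small further increase, so a rise in these mRNAs has little room to show. Whether a fall would also be compressed at this level was not tested. Without the probes with a mean of at least 15 the ratio was 0.03 for rps6 on its 1 remaining probe, -0.01 for rps20, -0.09 for rpl27a and 0.20 for rpl6, and none was called. The remaining probes of rps6, rps20 and rpl27a still had means between 13.39 and 14.87. Those of rpl6 were only its dim probes, described next.

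The probes within rpl6 fell into separate levels. The 5 probes with the lowest numbers, 8, 10, 12, 14 and 16, had mean log2 values between 8.66 and 9.51, whereas the other 7 lay between 15.14 and 15.86. The number that ends a probe's identifier is taken here as its position along the target sequence, which the files do not state. On that reading the dim probes overlap for most of their length, so they are not separate readings of the target. In the dim set the difference between 5 Gy and control was 1.47 on probe 8 but -0.03 on probe 10. On probe 8 control replicate 2 had 6.74, against 8.46 and 8.57 in the other controls. The other dim probes had differences of 0.30, 0.47 and -0.14. On the 7 bright probes the differences lay between -0.16 and 0.18.

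The rpl37 target, also for a large subunit protein, gave a moderate signal on all of its 12 probes, between 7.58 and 11.55. Its log2 values were 9.72, 9.59 and 9.35 in the 5 Gy pools, against 9.82, 9.50 and 9.29 in the control pools. The values followed the replicate number more than the treatment, highest in both pools numbered 1 and lowest in both numbered 3, and the ratio was 0.01 (95% interval -0.63 to 0.66). Levels of different probes cannot be set against each other, so this does not say that rpl37 mRNA was scarcer than that of the other ribosomal proteins.

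**Figure D2:**
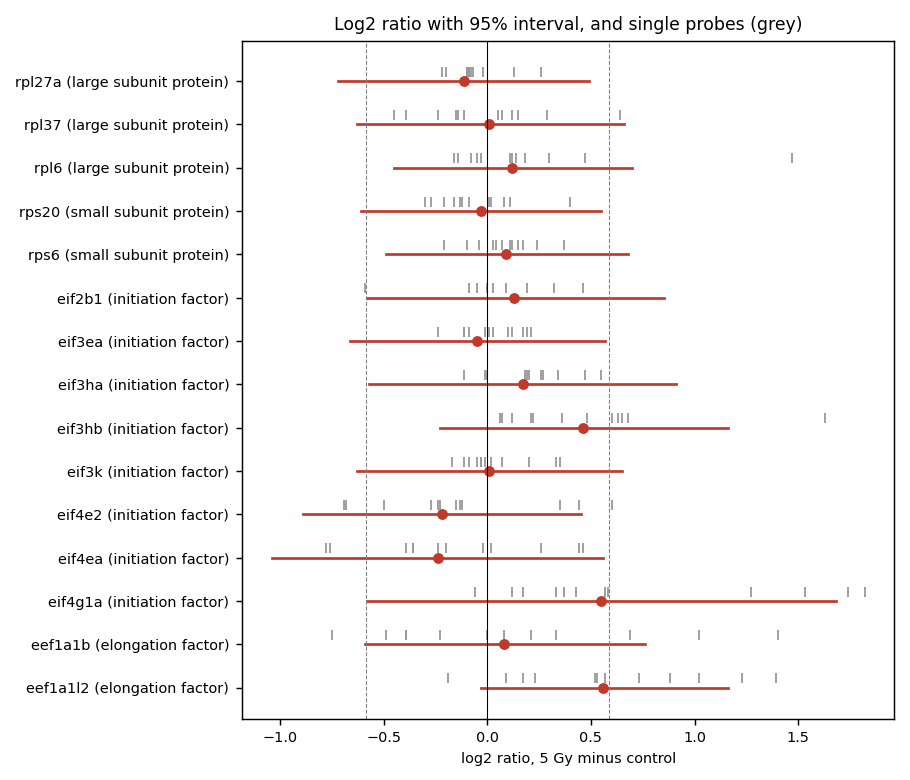
Log2 ratio of 5 Gy to control (x axis) for the 15 targets (y axis). Points are limma estimates, red lines are 95% intervals, grey ticks are differences of single probes, and dashed lines mark 1.5-fold in each direction. Each interval includes 0, the probes of rps6 lie close together between -0.21 and 0.37, and those of eif4g1a spread between -0.06 and 1.82.

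Of the 8 initiation factor targets 5 had ratios above 0 and 3 below 0, with a median of 0.07, and none was called. They include 4 genes for subunits of eIF3, a pair of them paralogs, the large complex that holds the small subunit ready for the mRNA. The eif3hb target had log2 values of 11.26, 10.61 and 11.14 at 5 Gy, against 10.54, 10.30 and 10.78 in controls. The lowest 5 Gy pool was below the highest control pool, but 5 Gy was higher in each replicate pair, by 0.72, 0.31 and 0.37. All 12 of its probes were higher at 5 Gy, with a median difference of 0.42, although probes of one target share the same RNA and are not replicates. The largest difference, 1.63 on probe 426, came with a value of 5.52 in control replicate 1, against 8.73 and 9.74 in the other controls. Its ratio was 0.46 (standard error 0.301, 95% interval -0.23 to 1.16, unadjusted p = 0.162). With array weights, which give discordant arrays less weight, the ratio was 0.67 and eif3hb was called, but so were 29.4% of all targets.

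The paralog eif3ha had 13.49, 12.65 and 13.02 at 5 Gy, against 12.86, 12.61 and 13.19 in controls, a ratio of 0.17 with pools that overlapped throughout. The ratio of eif3hb exceeded that of eif3ha by 0.29. An exact two-sided permutation test gave p = 0.1, its lowest possible value, and 0.3 after adjustment over the 3 pairs of related genes compared. The other eIF3 subunits showed no difference of this size. The eif3ea target had 14.63, 14.22 and 14.28 at 5 Gy, against 14.36, 14.53 and 14.38 in controls, and eif3k had 13.71, 13.38 and 13.62 at 5 Gy, against 13.26, 13.77 and 13.64 in controls. Their ratios were -0.05 (95% interval -0.66 to 0.57) and 0.01 (95% interval -0.63 to 0.65).

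The gene eif2b1 encodes a subunit of eIF2B, which reloads eIF2 with GTP and is the point at which the integrated stress response acts on initiation. Its values were 10.81, 10.12 and 10.06 at 5 Gy, against 10.39, 10.20 and 9.99 in controls. The difference rested on 5 Gy replicate 1, since the ratio was 0.13 (95% interval -0.58 to 0.85) with all pools and -0.11 without that pool.

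Among the factors that bind the mRNA cap, eif4ea encodes the cap-binding protein eIF4E and eif4e2 a related protein that represses translation in mammals. The eif4ea target had 8.87, 8.86 and 8.78 in the 5 Gy pools, against 9.41, 9.43 and 8.38 in the control pools. The 5 Gy pools lay between control replicate 3 and the other controls, and the control treatment was much more spread (SD 0.599) than the 5 Gy treatment (SD 0.049). The ratio was -0.24 (95% interval -1.04 to 0.56), and it was -0.59 without control replicate 3 (unadjusted p = 0.0716). The eif4e2 target had 10.12, 10.04 and 10.38 at 5 Gy, against 10.76, 10.31 and 10.14 in controls. Its ratio was -0.22 (95% interval -0.89 to 0.45), with overlapping pools.

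The eif4g1a target (NM_001080200) varied most among the 15. Its protein, eIF4G, is the scaffold that ties the cap-binding protein to the helicase eIF4A and to eIF3. The log2 values were 11.34, 11.28 and 12.40 at 5 Gy, against 10.61, 10.67 and 12.09 in controls. Both pools numbered 3 were well above the other 4, and 5 Gy was higher in each pair, by 0.73, 0.61 and 0.31. The ratio was 0.55 (standard error 0.491, 95% interval -0.58 to 1.68, unadjusted p = 0.294), with an exact permutation p of 0.5 (two-sided). When the fit included the replicate number as a block, the standard error was 0.294 and an unadjusted p of 0.0944. Without control replicate 3 the ratio was 1.03 (unadjusted p = 0.0338), and with array weights it was 1.32 (unadjusted p = 0.00419), and the target was called in both, as were 19.2% and 29.4% of all targets. Without 5 Gy replicate 3 it was 0.19.

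The difference in eif4g1a was larger on its lower-numbered probes. Probe 19 had 9.85, 8.42 and 11.59 at 5 Gy, against 6.91, 6.51 and 10.98 in controls. Probe 1674 had 9.48, 8.73 and 10.44 at 5 Gy, against 7.61, 6.18 and 10.26 in controls. Control replicates 1 and 2 were the lowest pools on these probes, while control replicate 3 was at the level of 5 Gy replicate 3. On the 4 lowest-numbered probes the difference between 5 Gy and control was 1.82, 1.74, 1.27 and 1.53. On probes 3197, 3448, 3897 and 5062 it was 0.37, 0.43, 0.17 and 0.33, and on probes 4438 and 4708 it was 0.12 and -0.06. Probe 4708 had 12.06, 12.14 and 12.26 at 5 Gy, against 12.59, 11.99 and 12.07 in controls. Over the lower-numbered 6 probes alone the ratio was 1.21 (standard error 0.753), and over the higher-numbered 6 it was 0.21 (standard error 0.353), and neither was called.

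**Figure D3:**
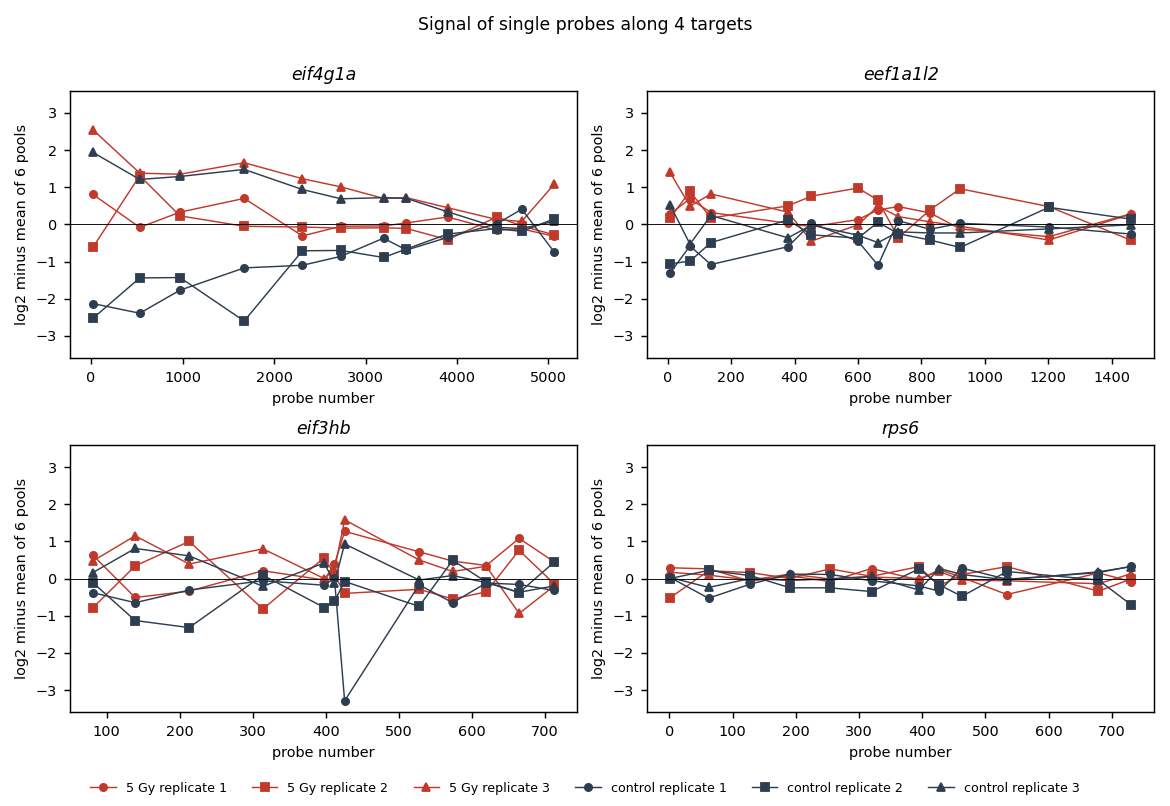
Log2 signal of each probe minus its mean over the 6 pools (y axis) against probe number (x axis) for eif4g1a, eef1a1l2, eif3hb and rps6, with 5 Gy pools in red, control pools in dark blue and a marker shape for each replicate number. In eif4g1a the control replicates 1 and 2 run below the other pools on low probe numbers and lie closer to them at high numbers. The rps6 probes stay close to 0 throughout.

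The elongation factor targets both encode eEF1A, which delivers charged tRNAs to the ribosome. The eef1a1l2 target (NM_001039985) came closest to the thresholds of all 15 members. It had log2 values of 14.45, 14.69 and 14.42 at 5 Gy, against 13.88, 13.91 and 14.07 in controls. All 5 Gy pools lay above all control pools, and the differences of the replicate pairs were 0.57, 0.78 and 0.35. The mean was 14.52 ± 0.149 at 5 Gy and 13.95 ± 0.102 in controls (SD, n = 3 pools each). The ratio of 0.56 (standard error 0.26, 95% interval -0.03 to 1.16), a fold of 1.48, was just short of 1.5-fold. The exact two-sided permutation test gave p = 0.1, its lowest possible value. The unadjusted p was 0.0604 with limma, 0.00502 with a prior that follows the mean level and 0.00565 in the methods' t-test, and the adjusted p was 0.905 with limma. With each array centred on its median, which moved the ratio to 0.61 (unadjusted p = 0.0457), it was called, along with 3.9% of all targets. Leaving out 1 pool at a time gave ratios between 0.48 and 0.62, but with the median of the probes in place of median polish the ratio was 0.13.

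In eef1a1l2, too, the difference was larger on the lower-numbered probes. Of its 12 probes 11 were higher at 5 Gy. Probe 70 had 11.24, 11.44 and 11.04 at 5 Gy, against 9.97, 9.56 and 10.02 in controls, a difference of 1.39 with no overlap. Probe 1202 had 14.59, 15.40 and 14.50 at 5 Gy, against 14.85, 15.38 and 14.80 in controls, a difference of -0.19. The lower-numbered 6 probes alone gave a ratio of 0.84 (standard error 0.308, unadjusted p = 0.0248), at which eef1a1l2 was called, and the higher-numbered 6 gave 0.40 (standard error 0.297, unadjusted p = 0.214). On these probes 3.52% and 3.99% of all targets were called. The difference also went with probe level. The eef1a1l2 probes with mean log2 values up to 12.81 differed by 0.73 to 1.39, and those from 13.91 upward by -0.19 to 0.57. The higher-numbered probe 663 (mean 12.81) had 1.02, and the lower-numbered probe 453 (mean 14.51) had 0.17. Whether position or level of the probes mattered was not tested.

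The paralog eef1a1b had 10.32, 9.59 and 9.75 at 5 Gy, against 9.82, 9.88 and 9.71 in controls. Its ratio was 0.08 (95% interval -0.59 to 0.76), with 7 probes higher and 5 lower at 5 Gy, between -0.75 and 1.40. The ratio of eef1a1l2 exceeded that of eef1a1b by 0.48 (exact permutation p = 0.2, two-sided, and 0.3 after adjustment over the 3 pairs). With 3 pools in each treatment this test cannot give a p below 0.1, so it cannot decide whether the paralogs differed. The genes of eEF1A are alike in sequence, and how far a probe of one binds the mRNA of another was not tested.

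The balance between lower- and higher-numbered probes differed among the arrays as a whole. For each of 36131 targets with at least 4 probes, the mean of its lower-numbered probes minus the mean of its higher-numbered ones was centred on the 6 pools. The median was 0.01, 0.03 and 0.08 in the 5 Gy pools, against -0.13, -0.09 and 0.09 in the control pools. Control replicates 1 and 2 were thus the lowest and control replicate 3 the highest. For eif4g1a the same contrast was 0.30, 0.24 and 1.00 at 5 Gy, against -1.28, -1.24 and 0.98 in controls, and for eef1a1l2 it was 0.06, 0.30 and 0.34 at 5 Gy, against -0.43, -0.41 and 0.14 in controls. In both targets control replicates 1 and 2 were the lowest. For rps6 it was 0.14, -0.01 and 0.05 at 5 Gy, against -0.12, 0.06 and -0.13 in controls.

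**Figure D4:**
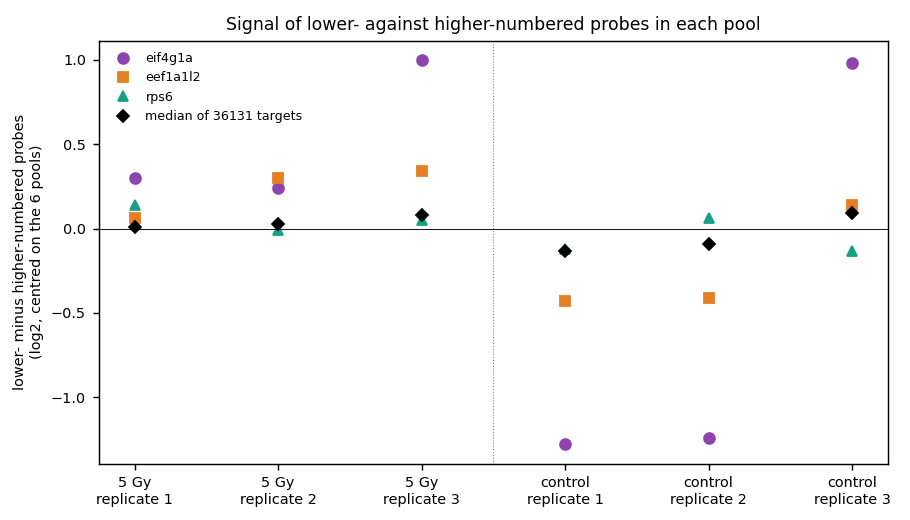
Mean log2 signal of the lower-numbered minus the higher-numbered probes, centred on the 6 pools (y axis), in each pool (x axis), for eif4g1a, eef1a1l2, rps6 and as the median of 36131 targets. Control replicates 1 and 2 lie below 0 for eif4g1a (-1.28 and -1.24), eef1a1l2 and the median of the array, and the other pools lie above 0 in each of them.

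Over the lower-numbered probes the ratio was larger than over the higher-numbered ones for 11 of the 15 members, and for 58.6% of all targets. The median ratio of the members was 0.08 on the lower-numbered and 0.03 on the higher-numbered probes, against 0.01 and -0.07 for all targets. With the median contrast of each array as a covariate the ratio of eif4g1a was -0.11, whereas those of eef1a1l2 and eif3hb were 0.51 and 0.35, and none was called. The part of RNA quality or labelling in this contrast was not tested.

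Among other genes of the translation pathway 0 were called in any of 4 lists, against 4.04% of all targets, and 0 had an unadjusted p under 0.05 in limma. Of 41 other ribosomal and translation genes 9 were measured (median 0.09), of 101 genes of ribosome biogenesis 14 (median -0.05), of 42 genes of aminoacyl-tRNA synthetases and their scaffold 4 (median 0.41) and of 47 genes of mTOR and the integrated stress response 7 beside rps6 (median -0.08). The lists were matched only to the named targets, so genes that the array holds under other identifiers are not counted as measured. The 4 of the synthetase list all had ratios above 0. A synthetase target under another identifier, YARS, is listed by the study as lower at 5 Gy. In the first list naca had 14.28, 14.60 and 14.56 at 5 Gy, against 14.78, 14.77 and 14.60 in controls (ratio -0.24). It was lower at 5 Gy without overlap of the pools, as were 4.7% of all targets. The highest 5 Gy pool and the lowest control pool were nevertheless equal at the precision given. The nuclear export adaptor of the large subunit, nmd3, had 10.39, 9.40 and 11.14 at 5 Gy, against 8.39, 8.67 and 11.02 in controls, a ratio of 0.95 (standard error 0.724). As in eif4g1a, control replicate 3 stood with 5 Gy replicate 3, far above the other controls. With the replicate number as a block, where 8.81% of all targets were called, nmd3 was called (limma, unadjusted p = 0.0375). The gene denr, which acts in reinitiation and ribosome recycling, had 7.16, 8.56 and 6.90 at 5 Gy, against 5.60, 6.77 and 7.21 in controls. Its ratio was 1.01 (standard error 0.552), and with the block it was called as well (limma, unadjusted p = 0.0425). In a paired test on the spread of each target alone, both calls were lost.

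The isoleucyl-tRNA synthetase gene iars1 had 11.39, 10.06 and 11.36 at 5 Gy, against 8.12, 9.33 and 11.59 in controls. Its ratio was 1.26 (standard error 0.811), and the tryptophanyl enzyme gene wars1 had 0.47 (standard error 0.338). In ribosome biogenesis the smallest p belonged to utp18 and nop53, with ratios of 0.47 and -0.39. The stress response factor gene ddit3 (CHOP) had 10.77, 11.75 and 10.94 at 5 Gy, against 12.27, 12.23 and 11.11 in controls, a ratio of -0.71 (standard error 0.421), and rhebl1, a relative of the mTOR activator Rheb, had -0.30 (standard error 0.274). The treatments overlapped for iars1 and ddit3. Control replicates 1 and 2 were below all 5 Gy pools for iars1 and above them all for ddit3, and control replicate 3 was not.

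The study itself assigned human names of this kind to 4 further targets that it had selected in these pools. They are described only, since a list chosen that way is no independent evidence of its direction. RPS27L, a paralog of a small subunit protein that is a p53 target in human cells, had 12.77, 12.51 and 13.36 at 5 Gy, against 11.79, 11.99 and 12.36 in controls. RPS16 had 7.30, 6.78 and 6.82 at 5 Gy, against 6.11, 6.16 and 6.56 in controls, with a control mean of 6.28 below the limit of the dimmest 25% of targets (6.97), and RPL13 had 13.76, 13.68 and 13.40 at 5 Gy, against 13.22, 12.71 and 13.08 in controls. EIF4A1, the helicase partner of eIF4G, had 6.01, 5.56 and 5.68 at 5 Gy, against 6.60, 6.83 and 5.94 in controls, with means of 5.75 at 5 Gy and 6.46 in controls that are both below that limit. The study lists all 4 as altered, so each met its thresholds on its own summary of the probes. The tests here used the values above, which were summarised separately, so their outcomes can differ from the study's. The ratios were 0.84 for RPS27L and 0.69 for RPS16, which met the thresholds with limma. Those of RPL13 (0.61) and EIF4A1 (-0.71) did not meet the thresholds. In the methods' t-test RPS16 and RPL13 met them (unadjusted p = 0.0346 and 0.0305), and RPS27L and EIF4A1 did not (0.051 and 0.0786).

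Few markers of single tissues were among the named targets. Lists for skeletal muscle, neurons, liver, exocrine pancreas, intestine and erythrocytes had 1 measured member each, the lens list had 4 and that of proliferating cells 2, and none of them was called. The lens crystallin crygm2a had 8.85, 11.55 and 9.27 at 5 Gy, against 8.33, 8.01 and 8.91 in controls, a ratio of 1.47 (unadjusted p = 0.0567), and it was called with the replicate number as a block (unadjusted p = 0.0301). Its value stood out in 5 Gy replicate 2. The other lens markers, crybb1, mipa and crygn2, had ratios of -0.24, -0.15 and 0.03. The neuronal marker stmn2b had 11.68, 10.05 and 11.85 at 5 Gy, against 11.61, 11.32 and 11.9 in controls. Its ratio was -0.41 (standard error 0.487, limma, unadjusted p = 0.42), and the low value was in 5 Gy replicate 2. The embryonic globin hbae3, the muscle light chain mylpfb, the pancreatic protease prss59.1 and the lens crystallin crybb1 were all strongly detected, whereas the liver marker hamp and the intestinal marker cdx1b gave low signals. The pools of prss59.1 did not overlap, lower at 5 Gy with a ratio of -0.16. Of all targets 4.7% were lower without overlap. The proliferation markers ccna2 and mcm5 had ratios of 0.19 and 0.03, and their summed intensity was 4060 to 8320 at 5 Gy, against 5030 to 5290 in controls.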

How the data were processed

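RNA of 6 pools was measured on a one-color NimbleGen array. The authors extracted signals with NimbleScan and quantile normalized them, and the deposited table holds linear intensities, 1 for each of 385000 probes on an array, not combined across probes, with a lowest value of 16.38. The submitters' processing notes name RMA with no version. Background subtraction is not given in the sources used here. All 6 columns were used. The probes of a target were summarised on the log2 scale with median polish (up to 10 iterations, tolerance 0.01) with R 4.3.3 and compared with limma 3.58.1 (lmFit, eBayes, no covariate), with Benjamini-Hochberg adjustment over all 37157 targets. The fit was tested on simulated data with independent noise in each target and no structure among arrays. That test does not cover the uneven correlations among these arrays.

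RefSeq mRNA identifiers were found for 3055 targets, and 2663 of these had a symbol in the GRCz12tu annotation. No build is named for the array, so no coordinates are given. The rule for named genes took, in each role, the 2 members with the smallest p and those with the lowest and highest ratio, the 2 genes of each pathway list with the smallest p, and 4 targets named by the study. The other members were named after their values were seen, so that all 15 are accounted for. The members and lists were chosen with earlier results of these data known. Alternatives were the replicate number as a block, other normalizations and summaries of probes, a filter on dim targets, other tests and leaving out each pool. Use of only some of the probes and a probe contrast as covariate were chosen after seeing the data. The number of arrays limits the precision. Replicates came from separate clutches, and whether same-numbered pools share a clutch is not stated. The deviations of same-numbered pools correlated at 0.15, 0.239 and 0.497, so the number was treated as a pairing in the block. Only for the number 3 was the 5 Gy pool closest, among controls, to the control of its own number.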

Additional observations from a re-analysis of the deposited data

How the results depend on the processing

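With 3 pools per treatment and limma's shared spread, the smallest standard error of a member was 0.251, and the signal of 4 ribosomal protein targets lay near the top of the scale. Members called lower numbered 0 in every alternative. The number called higher was 0 in most and 1 with median centring of arrays (eef1a1l2), 2 with array weights (eif3hb and eif4g1a), 1 on the lower-numbered probes alone (eef1a1l2), and 0 to 1 with each pool left out, where the call was eif4g1a without control replicate 3. With the replicate number as a block no member was called (eef1a1l2 at 0.56, unadjusted p = 0.0873), while the targets called on the whole array numbered 1343 higher and 1929 lower, against 426 and 1074 without the block. Array weights gave 4721 and 6192, the methods' t-test 197 and 372, the paired t-test 161 and 180, and the probe contrast as covariate 245 and 448. Leaving out 1 pool gave 104 to 2902 higher and 198 to 4224 lower, the highest of both without control replicate 3. At an adjusted p under 0.05 limma called 0 targets, against 1500 at an unadjusted p under 0.05.

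The median ratio of the elongation factors was 0.13 with the median of probes, 0.56 on the lower-numbered and 0.13 on the higher-numbered probes. That of the large subunit proteins was -0.16 with array weights, and that of the small subunit proteins 0.09 on the lower-numbered probes. With each pool left out the median of all members ranged from -0.06 to 0.12 and that of the initiation factors from -0.08 to 0.17, both lowest without 5 Gy replicate 1. Some ratios that were not called in the limma fit without a block changed sign, among them those of eif4g1a (0.55) and eif4ea (-0.24), which were not near 0. Median centring gave 0 for eif3ea and 0.02 for rps20, the mean of probes -0.01 for rpl37 and 0.02 for eif3ea, and the median of probes -0.13 for rpl37, -0.05 for eif3k, 0 for rpl27a and 0.13 for eif3ea. Array weights gave -0.06 for eif2b1, -0.16 for rpl37, -0.02 for eef1a1b and 0.01 for rps20. The alternatives chosen after seeing the data gave, on lower-numbered probes, -0.06 for eif2b1, -0.17 for rpl37, 0.08 for eif4ea, 0.03 for rpl27a and 0.01 for rps20, on higher-numbered probes -0.13 for eef1a1b, with the covariate -0.06 for eif3k, -0.11 for eif4g1a, 0.15 for eif4ea and 0 for eif3ea, and without the brightest probes -0.02 for eif3k. With each pool left out the ratio ranged from -0.11 to 0.16 for rpl37, -0.17 to 0.03 for eif3ea, -0.14 to 0.12 for eif3k, -0.11 to 0.27 for eif2b1, -0.05 to 0.37 for eif3ha, -0.13 to 0.23 for eef1a1b and -0.07 to 0.02 for rps20. The cause was not tested.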
